A study of Homo sapiens with 6 samples.

Results

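Aminoacyl-tRNA synthetases are the enzymes that attach each amino acid to its transfer RNA, the step that decides what a codon is read as. Human cells hold separate cytosolic and mitochondrial sets, both encoded in the nucleus, and GARS1 and KARS1 each make the enzyme of both compartments. Several cytosolic enzymes sit in a multi-synthetase complex, and many cytosolic synthetase genes are raised by the transcription factor ATF4 when amino acids run short. The 35 genes listed here were chosen by name, 19 for cytosolic and 16 for mitochondrial enzymes, among 11963 genes measured on the arrays. A probe set annotated to that gene alone was found for 26 of them, 16 cytosolic and 10 mitochondrial. MARS1, QARS1 and TARS2 had only probe sets annotated also to a microRNA, which are described apart from the counts. FARSB, AARS2, EARS2, MARS2, PARS2 and VARS2 were not analysed here.

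The cells were MDA-MB-231, an established triple-negative breast cancer line grown in RPMI medium with serum and antibiotics. Dinaciclib, an inhibitor of several cyclin-dependent kinases including the transcriptional kinase CDK9, was given for 12 h, and these 3 samples, named F, 4 and 5, were set against 3 baseline samples taken at 0 h, named E, 4 and 5. The drug came in DMSO, and the labels give no dose, no sample with DMSO alone and no untreated sample kept for 12 h, so the drug, the solvent and the time in culture cannot be told apart. Nothing states that the samples were separate cultures, so p-values reflect only how far the 6 arrays scatter, which may be technical. All 6 markers of this mesenchymal-like line that were looked up were bright, from a mean intensity of 2609 for CAV2 to 8911 for VIM. Markers of luminal cells were dim for PGR (2.42), CDH1 (7.20) and ESR1 (20.8) but not for ERBB2 (121), EPCAM (211) and GATA3 (322), and the 2 measured leukocyte and 3 fibroblast markers stayed between 13.8 and 41.6.

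Arrays differed as a whole. Median intensities were 43.3, 46.8 and 40.6 in dinaciclib F, 4 and 5, against 53.3, 66.2 and 60.8 in baseline E, 4 and 5, and across genes the median log2 change was -0.26. Samples named by a letter read 1155 (dinaciclib F) and 736 (baseline E) on the 5-prime 18S ribosomal RNA control, while the 4 numbered samples read 8273 to 9061; the part of this in the results was not tested, but values without the lettered samples are given below. The number of arrays, 3 per group, limits the precision. In RNA from whole cultures, fewer cells and less RNA per cell cannot be told apart.

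Transcripts of 9 of the 26 measured synthetase genes fell after dinaciclib and 0 rose, at a Benjamini-Hochberg adjusted p under 0.05 from limma over the whole table (at an unadjusted p under 0.05, 14 were lower and 0 higher, beside 3234 lower and 835 higher among all 11963 genes). Of all 11963 genes, 16.4% were called lower and 3.54% higher. The 9 were FARSA, AARS1, CARS1, HARS1 and YARS1 among 16 cytosolic genes, and SARS2, LARS2, HARS2 and NARS2 among 10 mitochondrial genes. In 15 of the 26 genes every dinaciclib value lay below every baseline value, as in 30.7% of all genes, and in 0 every dinaciclib value lay above, against 9.36% of all genes. The median log2 change was -0.41 for cytosolic and -0.64 for mitochondrial genes, or -0.15 and -0.38 relative to the median gene. Synthetase genes are brighter than most, with a median level of 9.25 log2 units beside 6.41 for all genes, and with dim genes left out 13 of 25 were lower, beside 35.4% of the remaining genes.

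**Figure D1:**
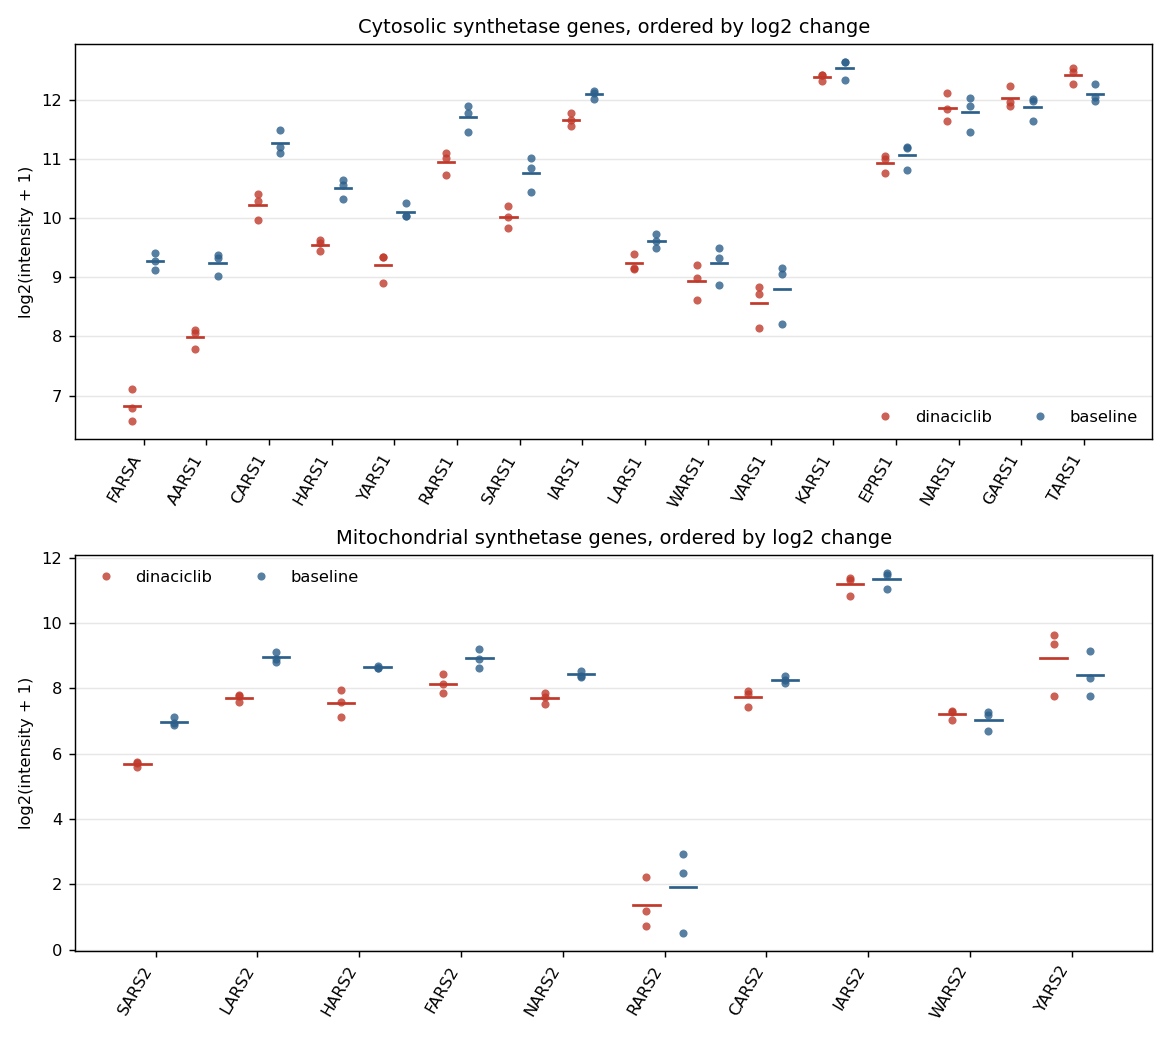
Level of each measured synthetase gene in every sample, as log2(intensity + 1), with dinaciclib samples in red and baseline samples in blue; points are samples and bars are means of 3. The FARSA, AARS1, CARS1, SARS2 and LARS2 points separate fully, while those of KARS1, EPRS1, NARS1 and IARS2 overlap.

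The largest fall was that of FARSA, the catalytic alpha subunit of the cytosolic phenylalanine enzyme. Its intensity was 110, 138 and 93.6 in dinaciclib F, 4 and 5, against 557, 617 and 677 in baseline E, 4 and 5. The groups lay far apart, with the highest dinaciclib sample still well under the lowest baseline sample. The level averaged 6.83 ± 0.28 log2 units in dinaciclib samples and 9.27 ± 0.14 in baseline samples (SD, n = 3 each), a 5.42-fold fall (log2 change -2.44, standard error 0.22; limma, Benjamini-Hochberg adjusted p = 0.00336). Its second probe set, dimmer and tested on its own, also fell (log2 change -2.11, adjusted p = 0.00782 over all probe sets, limma). FARSA passed whichever 1 sample was left out. The mitochondrial phenylalanine enzyme is made by a different gene, FARS2, as a single chain. FARS2 read 232, 349 and 276 in dinaciclib samples and 395, 586 and 479 in baseline samples, with no overlap, but its log2 change of -0.77 (standard error 0.25) missed the threshold (adjusted p = 0.0827, limma with Benjamini-Hochberg). FARS2 was called lower under 5 of 12 other settings, among them letter or number as a covariate (0.0379), and in 0 of 6 fits with a sample left out.

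AARS1, the alanine enzyme, which also edits out wrongly attached serine and glycine, read 219, 276 and 266 in dinaciclib F, 4 and 5, against 521, 642 and 660 in baseline E, 4 and 5. CARS1, the cysteine enzyme, read 1256, 1353 and 999 in dinaciclib samples, against 2194, 2882 and 2358 in baseline samples. In both genes the groups separated fully, with log2 changes of -1.26 (standard error 0.20, adjusted p = 0.0103) for AARS1 and -1.04 (standard error 0.22, adjusted p = 0.0214) for CARS1 (limma, Benjamini-Hochberg), and the other CARS1 probe set fell as well (log2 change -1.22). HARS1, the histidine enzyme, read 793, 762 and 694 in dinaciclib samples and 1273, 1604 and 1501 in baseline samples. YARS1, the tyrosine enzyme, fragments of which act as secreted cytokines, read 650, 649 and 478 in dinaciclib samples and 1048, 1213 and 1043 in baseline samples. Their falls were close to 1 log2 unit, at -0.96 (standard error 0.19, adjusted p = 0.0181) for HARS1 and -0.91 (standard error 0.21, adjusted p = 0.0304) for YARS1 (limma, Benjamini-Hochberg).

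Of these calls, those of AARS1 and FARSA held with any single sample left out. CARS1 lost its call without baseline 4 (adjusted p = 0.0773), baseline 5 (0.0718), dinaciclib 5 (0.0668) or dinaciclib F (0.0518). HARS1 lost it without baseline 4 (0.0707), baseline 5 (0.0775), dinaciclib 4 (0.0607) or dinaciclib 5 (0.0626), and YARS1 lost it in all 6 such fits (0.0550 to 0.104; limma, Benjamini-Hochberg). The count of lowered cytosolic genes was then 2 without baseline 4, baseline 5 or dinaciclib 5, 3 without dinaciclib 4 or F, and 6 without baseline E. Over all genes, the share called lower was 7.51% without baseline 4, 7.73% without baseline 5, 9.76% without dinaciclib 5, 10.6% without dinaciclib 4, 12.6% without dinaciclib F and 15.4% without baseline E. Among the numbered samples alone 3 cytosolic genes, AARS1, FARSA and HARS1, were lower, beside 9.86% of all genes.

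The multi-synthetase complex holds the enzymes for glutamate and proline (EPRS1), isoleucine (IARS1), leucine (LARS1), lysine (KARS1) and arginine (RARS1), which had probe sets of their own, besides MARS1 and QARS1. None of these 5 passed (limma, Benjamini-Hochberg; 2 at an unadjusted p under 0.05), while 5 of the 11 measured cytosolic enzymes outside the complex did, beside 16.4% of all genes called lower. RARS1 came nearest, with 2194, 2055 and 1691 in dinaciclib F, 4 and 5, against 2788, 3786 and 3483 in baseline E, 4 and 5 (log2 change -0.76, standard error 0.21, adjusted p = 0.0564). It was called lower without baseline E (0.0477) and under 4 other settings, and IARS1 (-0.44) was called lower under 2, so the absence of calls among these 5 depended on the settings. MARS1, measured only by probe sets shared with a microRNA, was called lower on its brightest (log2 change -0.73, adjusted p = 0.0483, limma). In the fit over all probe sets that MARS1 probe set did not pass (0.0543). The shared probe set of QARS1 did not pass (-0.37). LARS1, the enzyme that also senses leucine for mTORC1, had a log2 change of -0.38 (95% interval -0.82 to 0.07). KARS1 (-0.14, interval -0.59 to 0.30) and EPRS1 (-0.13, interval -0.63 to 0.36), whose 2 activities are fused in 1 chain, had intervals on both sides of 0. Both KARS1 probe sets gave small values (-0.14 and -0.22), and the 3 of EPRS1 ranged from -0.27 to 0.36. AIMP1, a scaffold protein of the complex and the only one measured of 3, had a log2 change of 0.31 (standard error 0.21) and did not pass.

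At the upper end of the cytosolic enzymes stood TARS1, GARS1 and NARS1. TARS1, the threonine enzyme, read 5621, 5930 and 4887 in dinaciclib F, 4 and 5, against 4011, 4921 and 4199 in baseline E, 4 and 5. GARS1, for glycine, read 3967, 4819 and 3803 in dinaciclib samples, against 3187, 4103 and 4026 in baseline samples. The groups overlapped in both genes, with log2 changes of 0.32 (95% interval -0.13 to 0.78) for TARS1 and 0.16 (-0.34 to 0.65) for GARS1. NARS1, for asparagine, had a log2 change of 0.07 (-0.51 to 0.65), which fell below 0 under quantile normalization (-0.03) and centring on spiked controls (-0.01). The serine enzyme SARS1, at 1031, 1174 and 906 in dinaciclib samples and 1380, 2058 and 1842 in baseline samples, was lower in every sample but missed the threshold (log2 change -0.75, adjusted p = 0.0704, limma). SARS1 was called lower without baseline E (0.0435) and under 4 other settings, with adjusted p from 0.0098 under a variance trend to 0.0202 for log2(value + 16). WARS1, the tryptophan enzyme, which interferon induces, had a log2 change of -0.30 (-0.92 to 0.33) and VARS1, for valine, one of -0.24 (-1.05 to 0.56), and neither passed.

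**Figure D2:**
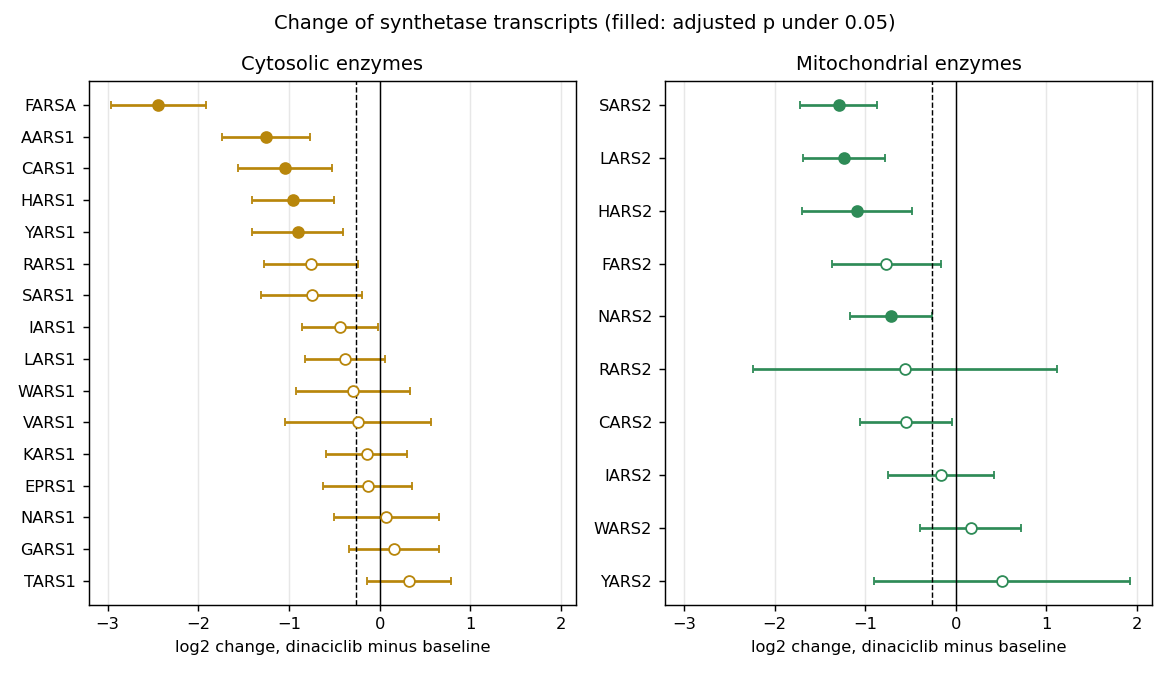
Log2 change of each measured gene (dinaciclib minus baseline) with its 95% interval from the limma fit, cytosolic enzymes left and mitochondrial enzymes right; filled points passed an adjusted p of 0.05, and the dashed line marks the median of all genes at -0.26. FARSA lies farthest left at -2.44, and TARS1, GARS1, NARS1, WARS2 and YARS2 lie above 0 with intervals that reach below it.

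Sequences near the gene starts were compared because the cytosolic genes spread so widely, from -2.44 to 0.32. Promoter windows of RefSeq (GRCh38.p14), from 250 bases before to 50 after each start, were held for 30 of the 35 genes and searched on both strands for TGATGNAA, the core of the element that ATF4 binds in amino acid response genes. It occurred in 7 of 16 cytosolic genes (43.8%) and in YARS2 alone among 14 mitochondrial genes (7.14%), beside 1217 of 27305 genes in all (4.46%). The 8 matches are shown with 11 bases on either side, read 5′ to 3′ on the gene's strand, with the match in capitals.
AARS1, chr16:70289675-70289704, minus strand: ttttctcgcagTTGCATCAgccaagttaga
CARS1, chr11:3057407-3057436, minus strand: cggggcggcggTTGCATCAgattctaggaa
GARS1, chr7:30594834-30594863, plus strand: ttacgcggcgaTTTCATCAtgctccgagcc
IARS1, chr9:92293692-92293721, minus strand: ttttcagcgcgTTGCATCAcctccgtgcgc
MARS1, chr12:57488053-57488082, plus strand: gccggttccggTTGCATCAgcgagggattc
NARS1, chr18:57621804-57621833, minus strand: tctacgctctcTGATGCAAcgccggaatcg
TARS1, chr5:33440956-33440985, plus strand: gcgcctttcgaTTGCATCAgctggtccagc
YARS2, chr12:32756076-32756105, minus strand: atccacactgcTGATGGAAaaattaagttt
Except in AARS1 and YARS2, where the match began 187 and 197 bases before the start, it lay within 33 bases of a start. Among measured cytosolic genes, the 6 with a match held all 3 whose log2 change was above 0 (TARS1, GARS1 and NARS1) but also the lowered AARS1 and CARS1, with a median of -0.18. The 7 with a window and no match had a median of -0.75 and 0 changes above 0, and 2 of them, FARSA and HARS1, were called lower. Both medians leave out MARS1, which has a match, and QARS1, which has none, because their probe sets are shared with a microRNA. The brightest MARS1 probe set was called lower (log2 change -0.73, adjusted p = 0.0483, limma), though not over all probe sets (0.0543). That of QARS1 had a log2 change of -0.37. MARS1 thus lay below the median of the genes with a match, and QARS1 above that of the genes without. Counting them would bring the medians closer, so the gap depends on leaving them out. No test was made of this split, and under median centring EPRS1, KARS1 and WARS1, which have no match, also lay above 0.

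ATF4 itself, whose output is controlled mainly at translation, had a log2 change of -0.17 (standard error 0.21) and did not pass. Of 21 measured other genes that ATF4 is known to raise, 3 fell, 2 rose and 16 did not pass, with a median of -0.20. Among all genes, 16.4% were called lower and 3.54% higher, and the median was -0.26. As log2 changes with standard errors, the stress factor DDIT3, or CHOP (-2.25, 0.34), the glutathione-degrading enzyme CHAC1 (-2.497, 0.42) and the arginine transporter SLC7A1 (-0.91, 0.21) fell, while ATF3 (1.42, 0.24) and the cystine transporter SLC7A11 (1.11, 0.23) rose. ASNS, the asparagine synthetase of metabolism (-0.13, 0.25), and TRIB3 (-0.36, 0.28) did not pass. The 10 measured cytosolic synthetases known to be raised through ATF4 had a median of -0.37, with 3 lowered. The 6 others had one of -0.57, with 2 lowered, again beside 16.4% of all genes.

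Among mitochondrial enzymes, SARS2, for serine, fell most. It read 47.5, 52.4 and 51.2 in dinaciclib F, 4 and 5, against 116, 137 and 122 in baseline E, 4 and 5. LARS2, for leucine, read 219, 218 and 190 in dinaciclib samples, against 445, 556 and 479 in baseline samples. Both had tight, separate groups, with log2 changes of -1.29 (standard error 0.18, adjusted p = 0.00659) for SARS2 and -1.23 (standard error 0.19, adjusted p = 0.00876) for LARS2 (limma, Benjamini-Hochberg). Both held with any 1 sample left out, and the other LARS2 probe set fell too (-0.93). NARS2, for asparagine, read 229, 213 and 183 in dinaciclib samples and 326, 371 and 329 in baseline samples (log2 change -0.72, standard error 0.19, adjusted p = 0.0434, limma). Its groups did not overlap, yet its call was lost in all 6 fits with a sample left out (0.0647 to 0.137).

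HARS2, the mitochondrial histidine enzyme, read 244, 192 and 137 in dinaciclib F, 4 and 5, against 406, 391 and 395 in baseline E, 4 and 5. Its log2 change of -1.09 (standard error 0.25, adjusted p = 0.0295, limma) was near the value of its cytosolic counterpart HARS1 (-0.96). HARS2 kept its call without dinaciclib F (0.0284) but lost it without dinaciclib 4 (0.0793), dinaciclib 5 (0.0673), baseline E (0.0675), baseline 4 (0.0891) or baseline 5 (0.0931). The number of lowered mitochondrial genes was 2 without dinaciclib 4, dinaciclib 5, baseline E, baseline 4 or baseline 5, and among the numbered samples alone it was also 2, LARS2 and SARS2. HARS1 and HARS2 lie head to head, and their promoter windows share 184 bases. The 84 bases between their starts, at chr5:140691371-140691454 (GRCh38.p14), are printed on the plus strand, that of HARS2, because both transcripts fell. Capitals mark 2 matches to CCGGAAG, a core that ETS factors bind, searched on both strands.
HARS1 and HARS2: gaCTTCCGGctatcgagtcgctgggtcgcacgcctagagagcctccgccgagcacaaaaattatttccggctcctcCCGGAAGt
That motif occurred in 16 of the 30 synthetase genes with a window (53.3%) and in 12.2% of all genes, and 0 of its matches in synthetase windows overlapped a TGATGNAA match. Any relation of CCGGAAG or of the shared stretch to the log2 changes was not tested.

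The remaining mitochondrial genes did not pass. CARS2, for cysteine, read 169, 242 and 224 in dinaciclib samples, against 286, 331 and 304 in baseline samples, lower in every one (log2 change -0.55, adjusted p = 0.131, limma). IARS2, for isoleucine and among the brightest, overlapped between groups at a log2 change of -0.16 (95% interval -0.75 to 0.42). WARS2, for tryptophan, read 155, 157 and 129 in dinaciclib samples and 102, 143 and 153 in baseline samples, a log2 change of 0.16 (-0.39 to 0.72). YARS2, for tyrosine, scattered widely, at 656, 790 and 214 in dinaciclib samples and 316, 560 and 216 in baseline samples. In both groups the sample named 5 was lowest, and the log2 change of 0.51 had an interval from -0.90 to 1.92. RARS2, for arginine, never exceeded an intensity of 6.66 on its brightest probe set, so its log2 change of -0.56 (-2.23 to 1.12) carries little information.

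**Figure D3:**
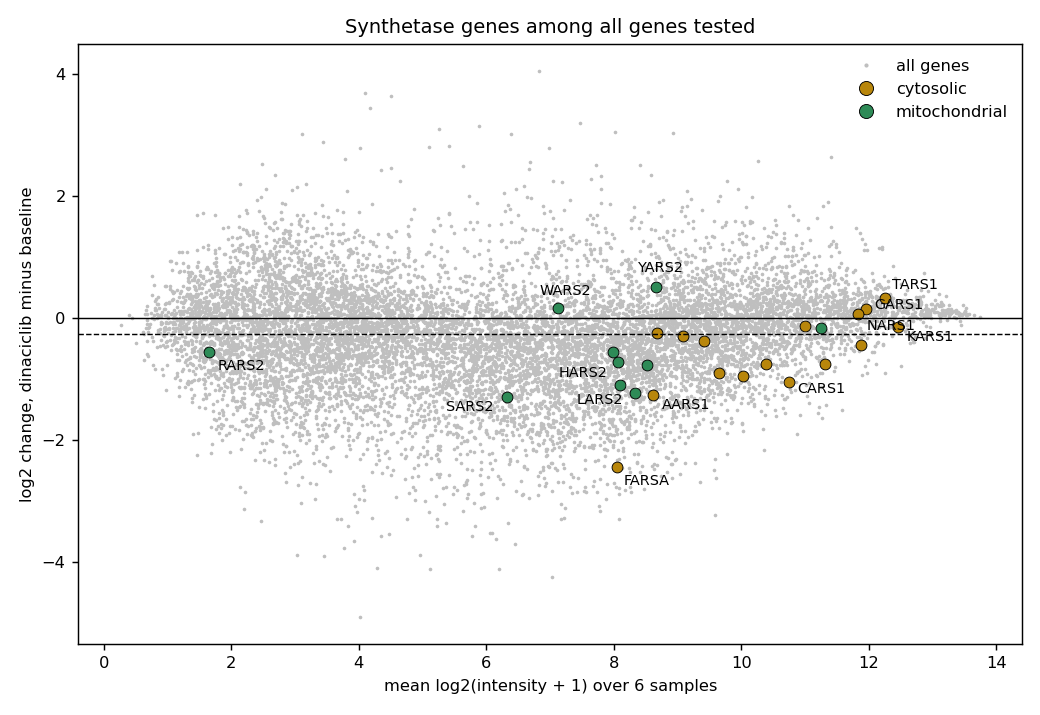
Log2 change against mean level over 6 samples for all genes (grey) and for synthetase genes (cytosolic in gold, mitochondrial in green); the solid line is 0 and the dashed line the median gene at -0.26. Mitochondrial genes other than IARS2 lie to the left of most cytosolic genes, and KARS1, TARS1 and GARS1, the 3 brightest synthetase genes, lie between -0.14 and 0.32.

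Cytosolic and mitochondrial genes were then compared. The difference of their median log2 changes, cytosolic minus mitochondrial, was 0.23, but it shrank to 0.04 without GARS1 and KARS1, turned to -0.07 under quantile normalization, and the compartments also differed in brightness, with median levels of 10.6 and 8.08 log2 units. By class of active site, class II enzymes were lowered in 3 of 8 cytosolic and 3 of 4 mitochondrial genes, beside 16.4% of all genes. Class I enzymes, with EPRS1 placed there by its first domain, were lowered in 2 of 8 cytosolic and 1 of 6 mitochondrial genes. Mitochondrial class I included RARS2, which lay near the floor. HARS2 and NARS2, both class II, lost their calls under quantile normalization, median centring and centring on spiked controls. For 10 amino acids an enzyme of each compartment was measured, and the log2 difference between the paired enzymes was taken within each array. A factor that scales the whole array cancels there, but one that varies with brightness does not. After dinaciclib the difference moved toward the mitochondrial enzyme, without overlap, for phenylalanine (FARSA against FARS2, -1.67, standard error 0.20), cysteine (CARS1 against CARS2, -0.50, 0.22) and tryptophan (WARS1 against WARS2, -0.46, 0.22). It moved toward the cytosolic enzyme, again without overlap, for leucine (LARS1 against LARS2, 0.85, 0.15), asparagine (NARS1 against NARS2, 0.79, 0.23) and serine (SARS1 against SARS2, 0.54, 0.16). For histidine (HARS1 against HARS2) the shift of 0.14 (standard error 0.21) lay within the spread. Tyrosine (-1.42, 0.55), isoleucine (-0.27, 0.16) and arginine (-0.20, 0.80) overlapped as well. Under quantile normalization the log2 changes came closer for serine (SARS1 -0.72, SARS2 -0.81), asparagine (NARS1 -0.03, NARS2 -0.29) and leucine (LARS1 -0.18, LARS2 -0.86). They lay farther apart for cysteine (CARS1 -1.06, CARS2 -0.12) and tryptophan (WARS1 -0.04, WARS2 0.64). Phenylalanine differed little from before (FARSA -2.08, FARS2 -0.41). Each of the 6 separated pairs had a two-sided exact permutation p of 0.1, the smallest that 3 against 3 samples allow, and a Benjamini-Hochberg value of 0.167 over the 10 pairs, so 0 pairs could pass.

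**Figure D4:**
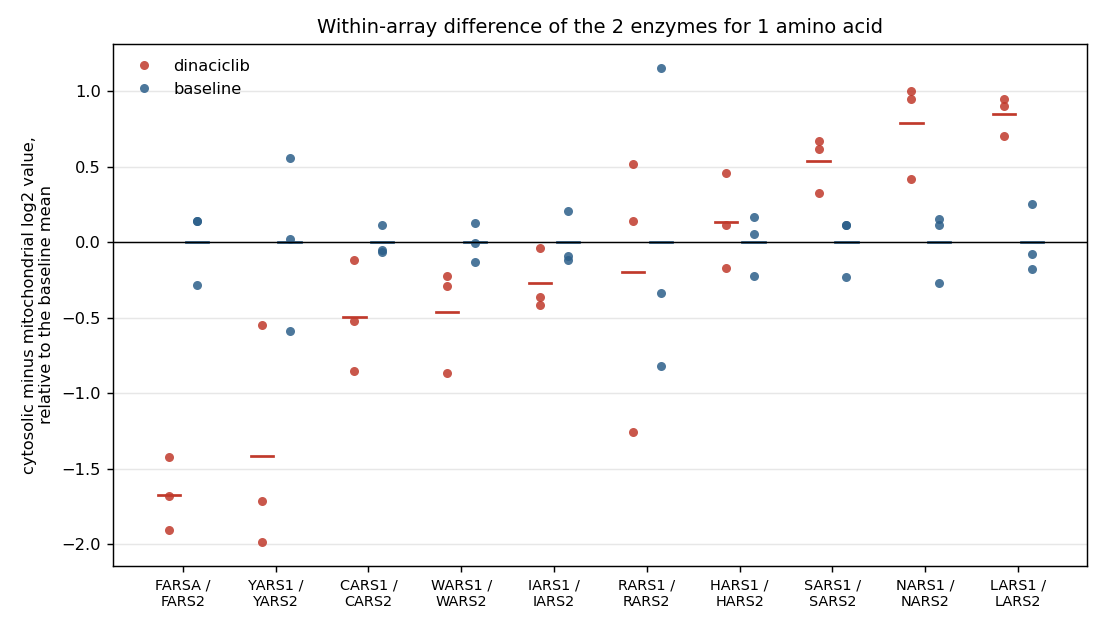
Within-array log2 difference, cytosolic minus mitochondrial enzyme, for 10 amino acids, set to 0 at the baseline mean; points are samples (dinaciclib red, baseline blue) and bars are group means. The pairs run from FARSA and FARS2 at -1.67 to LARS1 and LARS2 at 0.85, with 3 separated downward, 3 upward and 4 overlapping.

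Probe sets annotated to both a synthetase and a microRNA were kept apart from the counts, and which of the 2 genes they read was not tested. The probe set of TARS2 and MIR6878 read 46.1, 40.4 and 34.5 in dinaciclib F, 4 and 5, against 152, 134 and 167 in baseline E, 4 and 5. This 3.68-fold fall (log2 change -1.88, standard error 0.20, adjusted p = 0.00424, limma) was larger in size than that of any mitochondrial gene counted above. The brightest of 3 probe sets of MARS1 and MIR6758 fell by 0.73 (standard error 0.20, adjusted p = 0.0483, limma). Over all probe sets it narrowly missed the threshold (0.0543). The other 2 were lower in every dinaciclib sample without passing (-0.75 and -1.82). That of QARS1 and MIR6890 read 1483, 1627 and 1255 in dinaciclib samples and 1715, 2007 and 1912 in baseline samples, with no overlap, and did not pass (-0.37, adjusted p = 0.248). With them counted, 6 of 18 cytosolic genes, MARS1 among them, and 5 of 11 mitochondrial genes were lower, beside 16.4% of all genes.

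Other genes of tRNA charging and translation moved in both directions. Mitochondria make glutaminyl-tRNA indirectly, with the amidotransferase of QRSL1, GATB and GATC, and of these QRSL1 (log2 change -1.76, standard error 0.20) and GATB (-0.74, 0.19) fell and GATC (-0.88, 0.35) did not pass. YRDC, which helps modify tRNAs next to the anticodon, rose (1.53, 0.20). In that list of charging partners, 2 of 5 measured genes fell, 1 rose and 2 did not pass. For this list and those that follow, the shares over all genes were 16.4% called lower and 3.54% called higher. Of 11 genes of tRNA splicing and end processing, 0 rose, 8 did not pass and 3 fell, namely RPP38 (-1.10, 0.25), POP4 (-0.93, 0.21) and POP5 (-0.91, 0.20). These encode subunits of RNase P, which trims the 5-prime end, as do RPP14 (-0.80, 0.24), RPP40 (-0.06, 0.20) and RPP30 (0.22, 0.20), which did not pass. Of 6 mitochondrial translation factors, MTRF1 (-1.66, 0.22), a release factor, and MTIF2 (-1.40, 0.19), an initiation factor, fell, 0 rose and 4 did not pass. None of 5 cytosolic elongation factors passed (limma; 0 also at an unadjusted p under 0.05), with values from -0.0050 (0.25) for EEF1A2 to 0.57 (0.24) for EIF5A, whose dinaciclib samples all lay above its baseline samples. The profile of the 9 lowered synthetases over the 6 samples was followed most closely by GLOD4, WDHD1 and KCNN4 (Pearson r of 0.9997 to 0.9996), and 1477 of 11937 other genes had an r above 0.95.

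How the arrays were scaled changed which genes were called. The median gene, at -0.26 as deposited, moved to -0.018 under quantile normalization, 0.19 under median centring and -0.34 on spiked controls. Changes against 0 therefore depend on the scaling, and the cause of the shift in the median gene was not tested. Under quantile normalization 10 synthetase genes were lower, 8 cytosolic and 2 mitochondrial, beside 13.4% of all genes, and WARS2 alone was higher, beside 8.89%. Centring each array on its median left 6 lower, beside 10.9% of all genes, and made GARS1, TARS1 and WARS2 higher, beside 16.3%. AARS1, CARS1, FARSA, HARS1, LARS2 and SARS2 were lower as deposited and under quantile normalization, median centring and centring on spiked controls. YARS1 lost its call under median centring and on spiked controls, and HARS2 and NARS2 under all 3.

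**Figure D5:**
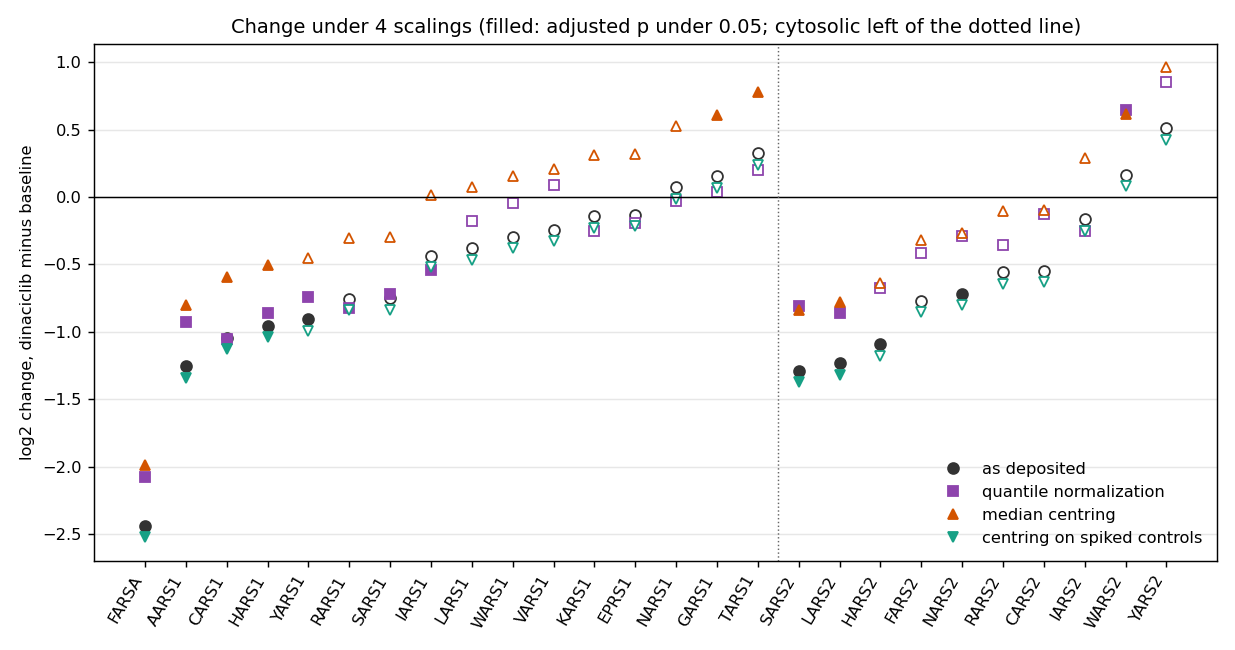
Log2 change of each measured gene as deposited (black circles), after quantile normalization (purple squares), centred on the array median (orange triangles) or on spiked controls (teal triangles); filled symbols passed an adjusted p of 0.05. The order of the genes is much alike, while the level shifts upward under median centring, where GARS1, TARS1 and WARS2 are filled above 0.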

How the data were processed

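Total RNA of 6 MDA-MB-231 samples was measured on a single-label (biotin) oligonucleotide array with 22277 probe sets. The deposited values are linear intensities; per the labels' protocols RNA was extracted with Trizol, and the summarization, background correction and scaling are not given in the sources used here. Probe sets were named from the platform annotation, checked by gene identifier against RefSeq: of those that are not controls, 19064 had 1 gene, 1043 several and 2108 none. Each gene was represented by the probe set with the highest mean, and 15114 rows (11963 genes and 3151 probe sets without a single gene) were fitted as log2(value + 1), without normalization, by a moderated linear model (limma 3.58.1, run in R 4.3.3), and p-values were adjusted over all rows by the Benjamini-Hochberg method. Fold changes on this scale understate those of dim genes. Of these steps, only the linear model was tested on simulated data, with normal noise and a constant shift in some rows. Pairs of enzymes were compared by exact permutation.

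The members, lists and tests were chosen with earlier results of these data known. Lists other than the members came from general knowledge of tRNA charging and of ATF4 targets. Genes were named by rule: every measured member, with per-sample values for those called and the extremes of each compartment, and of other lists the 2 called genes that rose most and the 2 that fell most, besides ATF4, DDIT3, ASNS, TRIB3 and AIMP1. SLC7A1, GATC, POP5, RPP14, RPP30, RPP40, EEF1A2 and EIF5A were named after their values were seen. DTD1, AIMP2, EEF1E1 and other listed genes without a probe set of their own were not analysed here. The replicate names 4 and 5 occur in both groups. Deviations from the group means correlated at 0.083 for 4, 0.076 for 5 and 0.17 for E with F, which the labels do not link, and this does not establish pairing. Alternatives were other scalings, log2(value + 16), removal of genes under the 40th percentile, means of probe sets, every probe set, a variance trend, letter or number as a covariate, blocks, and samples left out. Figures were drawn with matplotlib 3.10.9.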

Additional observations from a re-analysis of the deposited data

How the results depend on the processing

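AARS1, FARSA, LARS2 and SARS2 stayed lowered with each sample left out and under every alternative except the replicate block on the numbered samples. Over 467 refits of single synthetase genes, 381 kept direction and call, 47 lost the call, 22 gained it and 17 changed sign; 0 of those that changed sign passed. The cause of each change below was not tested, unless fewer samples or genes entered.

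Quantile normalization gave 8 lowered cytosolic, 2 lowered and 1 raised mitochondrial genes, a mitochondrial median of -0.32 and a difference of medians of -0.073; NARS1 turned to -0.027 and VARS1 to 0.089. Median centring gave 2 raised cytosolic, 2 lowered and 1 raised mitochondrial genes, with medians of 0.044 and -0.18; EPRS1 (0.32), IARS1 (0.017), KARS1 (0.31), LARS1 (0.072), VARS1 (0.21), WARS1 (0.16) and IARS2 (0.29) turned positive. Spiked controls gave 2 lowered mitochondrial genes, beside 13.3% of all genes, and NARS1 at -0.011. A variance trend with robust estimation gave 8 lowered cytosolic genes, but the share of all genes called lower also rose, to 22.4%. The mean of probe sets turned VARS1 to 0.14. Without GARS1 and KARS1 the difference of medians was 0.044.

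The replicate block on the numbered samples leaves 1 residual degree of freedom and called 0 genes, 0 cytosolic and 0 mitochondrial (limma; 4093 genes and 12 members at an unadjusted p under 0.05), with a mitochondrial median of -0.79 and WARS2 at -0.055. With E and F as a further block, 5 cytosolic and 4 mitochondrial genes were lowered, beside 15.5% of all genes. Only 8 of the 9 called without this block were among them: NARS2 lost its call (adjusted p = 0.0551, limma) and FARS2 gained one (0.0386). The numbered samples without a block called 1409 genes, 3 cytosolic and 2 mitochondrial, with a median of -0.79 and WARS2 at -0.055.

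With 1 sample left out, 1118 to 2154 genes were called, 2 to 6 cytosolic and 2 to 3 mitochondrial synthetases were lowered, 0 were raised, and the medians ranged from -0.51 to -0.39 and from -0.83 to -0.55, with a difference of 0.13 to 0.32. NARS1 (-0.095 to 0.19), IARS2 (-0.31 to 0.0081) and WARS2 (-0.015 to 0.28) changed sign among these fits. RARS2, near the floor, cannot show a change at this signal.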
